A study of Bos taurus with 56 samples.

Results

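The genes that move ions, bicarbonate and water across the oviduct epithelium were taken from the deposited read counts by symbol. They are all symbols that begin with SLC4A, SLC9A, SLC12A, SLC26A, ATP1A, ATP1B or SCNN1, all aquaporins (AQP) and carbonic anhydrases (CA) written with a number, and CFTR. The rule gave 81 of the 31903 genes in the table, of which 76 are described. Of these, 42 had a mean of at least 1 CPM (counts scaled to a common library size) over all libraries and were compared across the 12 conditions. The symbols SLC4A1AP, SLC9A3R1 and SLC9A3R2 meet the rule but name proteins that bind transporters and are not transporters themselves.

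Epithelial cells were scraped from the ampulla and the isthmus of Holstein animals slaughtered on Day 3 after a synchronized estrus, and their RNA was sequenced as 56 libraries from 14 animals. The animals were 5 heifers, 5 post-partum non-lactating cows that were dried off at calving and 4 post-partum lactating cows that were milked. Both groups of cows had calved once and were about 60 days post-partum. Each animal gave 1 library from each region of the oviduct beside the corpus luteum (CL), called ipsilateral, and of the opposite, contralateral oviduct. No animal was inseminated, and every animal had received the same hormonal synchronization. With 1 library per animal and tissue, p-values measure the spread between the animals of a condition. The tests of regions, of sides and of their interaction treated libraries of the same animal as independent. Only the fits with the animal as a block used the pairing.

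Epithelia that secrete fluid load chloride across the basolateral membrane with sodium-potassium-chloride cotransport, which is driven by the sodium gradient of the Na+/K+-ATPase, and release chloride and bicarbonate into the lumen through apical channels such as CFTR. Water follows through aquaporins and between the cells, while the epithelial sodium channel absorbs sodium and water in the opposite direction. In the oviduct these transporters set the volume, the bicarbonate content and the pH of the fluid in which sperm are stored and the early embryo develops.

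The libraries held 1901454 to 6836850 counts on genes (median 4931502.5), and the 42 genes compared took 0.167 to 0.449% of them. With 3 counts as the floor of detection, a gene had to reach 0.439 to 1.58 CPM, depending on the library, and this floor covers counting error only. In the ipsilateral ampulla 4 libraries stood apart from their labels. One non-lactating library carries the column number of lactating cow B and 1 lactating library that of non-lactating cow C, and the libraries numbered heifer B and non-lactating cow B resembled each other's animals. Over the genes that varied most between animals relative to the spread within them, chosen on these libraries too, these 4 libraries correlated at 0.727 to 0.854 with the other libraries of another animal and at 0.104 to 0.337 with those of their own number. All 4 stayed in the condition that their column names give. They entered no count of animals. Most counts of called genes that use the ipsilateral ampulla are given with and without them, as are single genes whose call changed or whose fold moved by over 1.5 times. Counts of genes called on both sides or on 1 side alone are given with them only. Epithelial markers (6 genes, EPCAM and KRT8 among them) had summed levels of 961 to 2210 CPM in the ampulla and 1220 to 2060 CPM in the isthmus, and markers of red blood cells were near 0 (at most 5.52 CPM summed, 7 of 8 under 1 CPM).

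Among the 42 genes compared, CFTR had a mean of 39.7 CPM over all libraries, and 7 were cation-chloride cotransporters (means over all libraries in CPM, SLC12A1 at 9.86, SLC12A2 at 54.4, SLC12A4 at 30.2, SLC12A5 at 1.69, SLC12A7 at 44.4, SLC12A8 at 1.61 and SLC12A9 at 6.33) and 7 were of the SLC4 family (SLC4A2 at 64.8, SLC4A3 at 2.65, SLC4A4 at 16.1, SLC4A7 at 141, SLC4A8 at 22.1, SLC4A9 at 1.22 and SLC4A11 at 1.35). A further 3 were sodium-proton exchangers (SLC9A3 at 2.48, SLC9A8 at 43.3 and SLC9A9 at 3.26), and 4 were anion transporters of the SLC26 family (SLC26A2 at 4.76, SLC26A5 at 1.42, SLC26A7 at 1.43 and SLC26A11 at 34.8). The Na+/K+-ATPase was represented by 3 beta subunits (ATP1B1 at 170, ATP1B2 at 30.7 and ATP1B3 at 30.5), and the epithelial sodium channel by 3 subunits (SCNN1A at 61.1, SCNN1D at 3.66 and SCNN1G at 5.4). There were 7 carbonic anhydrases or related proteins (CA2 at 12.1, CA5B at 7.77, CA8 at 111, CA9 at 7.63, CA10 at 3.49, CA11 at 3.45 and CA13 at 4.33) and 4 aquaporins (AQP4 at 441, AQP5 at 76.2, AQP6 at 9.29 and AQP9 at 557). The proteins named for a transporter had means of 71.3 (SLC4A1AP), 325 (SLC9A3R1) and 3.76 CPM (SLC9A3R2). These levels are not corrected for gene length and were not compared between genes. The remaining 34 genes had a mean under 1 CPM, 29 of them under 0.5 CPM. They include several that are known from other secretory epithelia, namely AQP1 (0.0148 CPM), the chloride-bicarbonate exchangers SLC26A3 (0.369) and SLC26A6 (0.00334), the membrane-bound carbonic anhydrase CA12 (0.419) and SCNN1B (0.468), the beta subunit of the sodium channel. At this depth a level under the floor of a library could not be told from 0, and these 34 genes were not compared. In the heat map of the 42 genes the colours of CFTR, SLC12A2, ATP1B1 and CA10 divide by region in all 3 metabolic groups and on both sides.

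**Figure D1:**
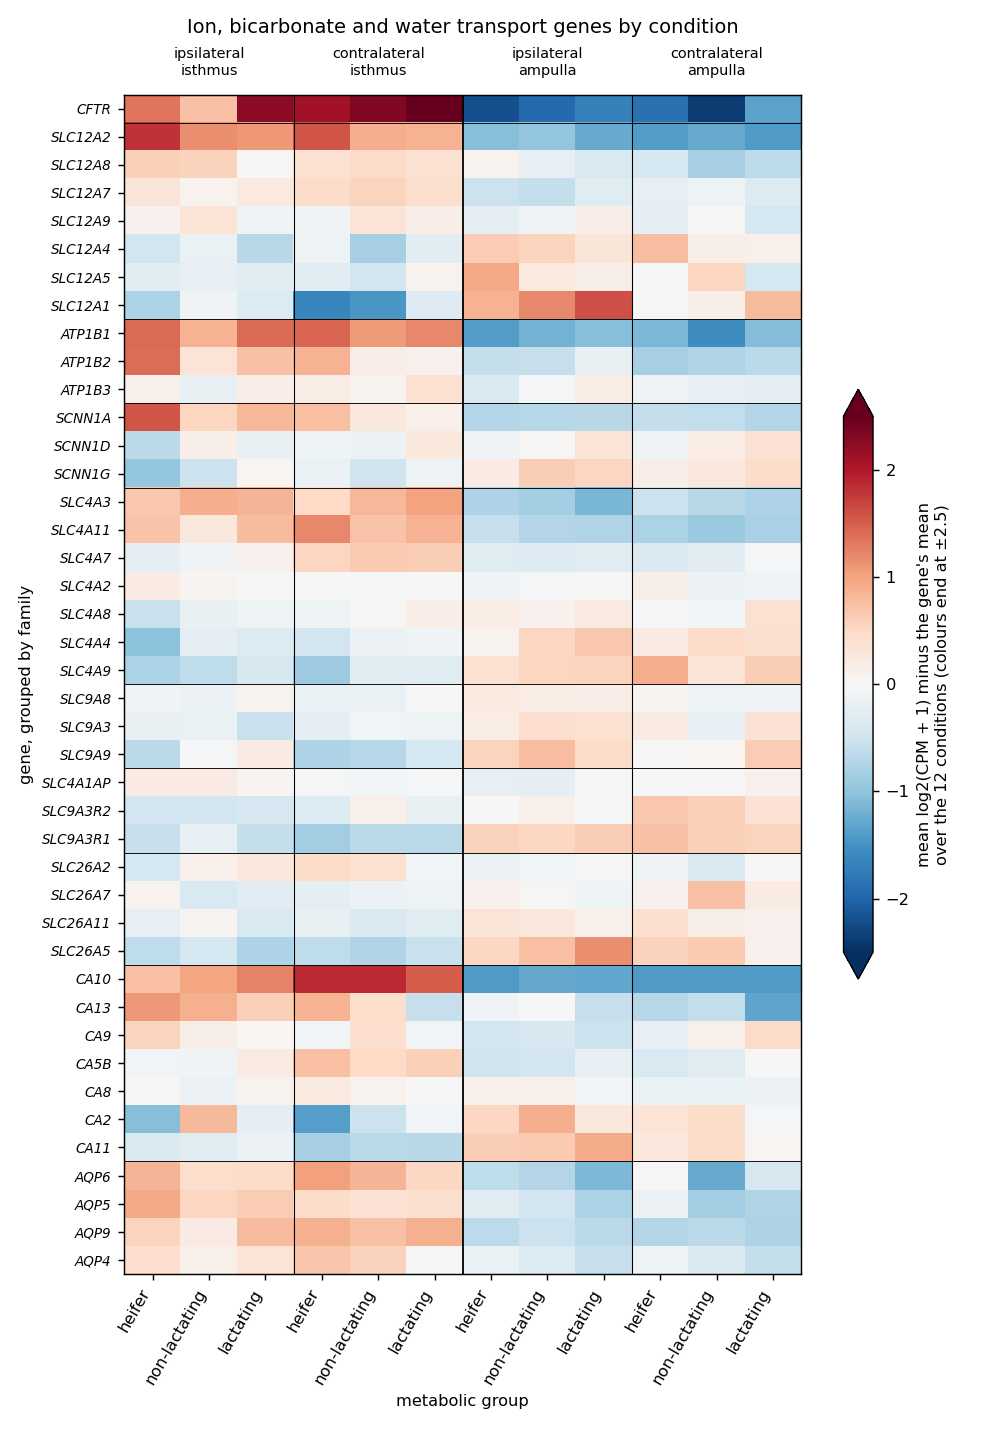
Colour gives the mean log2(CPM + 1) of each condition minus the gene's mean over the 12 conditions, with genes as rows, grouped by family, and the 3 metabolic groups of each region and side as columns (4 or 5 libraries a condition). CFTR, SLC12A2, ATP1B1, SCNN1A, CA10, AQP5 and AQP9 are red in the isthmus and blue in the ampulla, and SLC9A3R1 shows the opposite. AQP4 in the contralateral isthmus of lactating cows and AQP6 in the contralateral ampulla of heifers are near white. SCNN1A in the contralateral isthmus of lactating cows and AQP5 in the contralateral ampulla of heifers also lie close to the gene's mean and are pale.

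The isthmus was compared with the ampulla on each side, with the 3 metabolic groups averaged and 14 libraries a region. CFTR, SLC12A2 and ATP1B1 were each 5.28- to 24.8-fold higher in the isthmus on both sides. SCNN1A and all 4 aquaporins were also higher there, while SLC4A4, SLC12A1, SLC12A4 and SLC9A3R1 were higher in the ampulla. On the ipsilateral side 33 of the 42 genes passed an adjusted p under 0.05 (78.6%), 17 higher in the isthmus and 16 higher in the ampulla. Of all 15276 genes tested 49.6% passed, 24.1% higher and 25.5% lower in the isthmus. On the contralateral side 29 of 42 passed (69%), 19 higher in the isthmus and 10 in the ampulla, against 42.5% of 15387 genes, 21.1% higher and 21.4% lower in the isthmus. The median log2 fold change of the 42 genes was 0.099 ipsilaterally and 0.15 contralaterally, and that of all genes -0.02 and -0.01. No test of the list as a whole was made. Genes that reached a mean of 1 CPM in 1 region alone entered through that region and had to differ. They were CA10, SLC26A5, SLC4A3, SLC4A9 and SLC4A11 on both sides and SLC12A8 contralaterally, and without them 28 of 37 genes passed ipsilaterally and 23 of 36 contralaterally. Without the 4 libraries of doubtful label 30 of 42 genes passed on the ipsilateral side (45.8% of all genes did), since CA5B, SCNN1D, SLC12A5 and SLC9A3 were lost and SLC12A8 was gained.

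Of the 42 genes 25 passed on both sides, each in the same direction, 15 higher in the isthmus and 10 higher in the ampulla, the 5 that reached 1 CPM in 1 region alone on both sides among them. The share of all genes that passed on both sides is not given, so the 25 have no share to be set against. The 25, like the counts that follow, include the libraries of doubtful label. A further 8 passed only ipsilaterally and 4 only contralaterally, which does not show that the sides differ. The test of that difference is given with the sides of the CL. Libraries of the 2 regions did not overlap for 7 genes on each side, 6 of them the same (ATP1B1, CA10, CFTR, SCNN1A, SLC12A2 and SLC9A3R1), where 4.68% of all genes ipsilaterally and 3.98% contralaterally did not overlap. Of these, CA10 entered through the isthmus alone and had to differ. The share of all genes without overlap on both sides is not given. Marker genes of other cell types moved with region. All 15 ciliated cell markers tested were lower in the isthmus on both sides, with summed levels of 4940 to 8340 CPM (median 6770) in the isthmus and 7300 to 12500 CPM (median 9420) in the ampulla. Fibroblast markers summed to 88.3 to 618 CPM (median 203) in the isthmus and 31.1 to 200 CPM (median 42.2) in the ampulla, with 3 genes higher and 1 lower in the isthmus on each side, of 6 tested ipsilaterally and 7 contralaterally, and DPT under 1 CPM. Endothelial markers summed to 13.7 to 124 CPM (median 40.3) in the isthmus and 99.6 to 417 CPM (median 205) in the ampulla, with 4 of 5 tested lower in the isthmus on both sides and CLDN5 and ESAM under 1 CPM. Smooth muscle markers summed to 40.2 to 207 CPM (median 89.5) in the isthmus and 37.5 to 206 CPM (median 80.7) in the ampulla, with 1 higher and 4 lower in the ipsilateral isthmus and 1 higher and 1 lower in the contralateral isthmus, of 6 tested, and CNN1, TAGLN and ACTG2 under 1 CPM. Secretory markers summed to 1840 to 26100 CPM (median 16600) in the isthmus and 12200 to 48600 CPM (median 17100) in the ampulla, with 3 of 8 higher and 2 lower in the ipsilateral isthmus and 1 higher and 2 lower contralaterally. Of 7 leukocyte markers tested 0 passed on either side. Of the 6 epithelial markers 5 were higher in the ipsilateral and 2 in the contralateral isthmus. Their part in the differences between regions was not tested, and in bulk samples fewer cells of a type and less RNA per cell cannot be told apart.

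Of the chloride transporters, CFTR, the apical channel for chloride and bicarbonate, had the largest fold between regions. Ipsilateral CFTR spanned 15.2 to 165 CPM (median 45.2) in the isthmus and 1.82 to 5.37 CPM (median 3.91) in the ampulla, and contralateral CFTR spanned 40 to 198 CPM (median 82.2) and 1.51 to 12.8 CPM (median 3.8). Every isthmus library lay above every ampulla library of its side. CFTR was 13.7-fold higher in the ipsilateral isthmus (log2 fold change 3.77, SE 0.24, adjusted p = 5.48e-13) and 24.8-fold higher in the contralateral isthmus (log2 fold change 4.63, SE 0.27, adjusted p = 8.89e-14). Mean levels of CFTR in heifers, non-lactating cows and lactating cows were 44.7 ± 14.7, 31.6 ± 18 and 90.4 ± 52.5 CPM in the ipsilateral isthmus, 76.6 ± 26.6, 96.6 ± 53.8 and 127 ± 74 in the contralateral isthmus, 2.88 ± 1.07, 3.68 ± 1.28 and 4.45 ± 0.928 in the ipsilateral ampulla and 3.86 ± 1.16, 2.43 ± 0.852 and 6.58 ± 4.23 in the contralateral ampulla.

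SLC12A2, the sodium-potassium-chloride cotransporter that loads chloride into secretory cells, followed the same order. Ipsilateral SLC12A2 spanned 58.6 to 165 CPM (median 80.5) in the isthmus and 10.4 to 26 CPM (median 15.8) in the ampulla, and contralateral SLC12A2 spanned 45.8 to 152 CPM (median 73.8) and 5 to 26.9 CPM (median 14). The regions did not overlap on either side. The fold was 5.65 on the ipsilateral side (log2 fold change 2.50, SE 0.15, adjusted p = 1.69e-13) and 5.69 on the contralateral side (log2 fold change 2.51, SE 0.22, adjusted p = 3.84e-10). Mean levels of SLC12A2 in heifers, non-lactating cows and lactating cows were 133 ± 37.2, 83.1 ± 21.3 and 79 ± 20.5 CPM in the ipsilateral isthmus, 116 ± 40.9, 71.6 ± 29.4 and 68.5 ± 21.8 in the contralateral isthmus, 17 ± 4.5, 18 ± 5.29 and 15 ± 5.09 in the ipsilateral ampulla and 14.5 ± 6.94, 14.6 ± 3.97 and 14.3 ± 8.84 in the contralateral ampulla. Its renal relative SLC12A1 was higher in the ampulla, at log2 fold changes of isthmus over ampulla of -1.77 (SE 0.34) and -1.88 (SE 0.39) on the ipsilateral and the contralateral side.

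The potassium-chloride cotransporters, which carry chloride out of cells, went in different directions. SLC12A7 spanned 33.8 to 64.1 CPM (median 51.6) in the ipsilateral isthmus and 19.4 to 45.5 CPM (median 28.3) in the ipsilateral ampulla, and 47.6 to 79.6 CPM (median 59.7) and 25.6 to 54.2 CPM (median 35) on the contralateral side. It was higher in the isthmus on both sides (log2 fold change 0.69, SE 0.12, adjusted p = 1.75e-05 ipsilaterally and log2 fold change 0.72, SE 0.10, adjusted p = 1.1e-06 contralaterally), with overlapping libraries. Mean levels of SLC12A7 in heifers, non-lactating cows and lactating cows were 53.4 ± 6.67, 45.9 ± 11.1 and 51.1 ± 11.8 CPM in the ipsilateral isthmus, 58.9 ± 7.96, 63.8 ± 13.2 and 57.9 ± 5.18 in the contralateral isthmus, 29.2 ± 6.95, 28.2 ± 7.37 and 34.7 ± 8.48 in the ipsilateral ampulla and 37.3 ± 9.82, 38.5 ± 5.68 and 33.3 ± 6.31 in the contralateral ampulla. SLC12A4 was higher in the ampulla on both sides (-0.99, SE 0.12 and -0.81, SE 0.14). SLC12A5 was lower in the ipsilateral isthmus (log2 fold change -1.17, SE 0.36, adjusted p = 0.00827), a call lost without the libraries of doubtful label (log2 fold change -0.89, adjusted p = 0.0841). SLC12A8 passed on the contralateral side (log2 fold change 1.99, SE 0.42, adjusted p = 0.000345), where it had 41 counts in the ampulla and 3 libraries at 0. On that side it entered through the isthmus alone and had to differ. Ipsilaterally it had 0.87 (adjusted p = 0.055, and 0.0441 without the libraries of doubtful label), and SLC12A9 passed on neither side (0.17 and 0.34).

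Among the beta subunits of the Na+/K+-ATPase, which carry this pump of the sodium gradient to the membrane, ATP1B1 and ATP1B2 were higher in the isthmus. Ipsilateral ATP1B1 spanned 169 to 367 CPM (median 311) in the isthmus and 26.6 to 83.4 CPM (median 46.6) in the ampulla, and contralateral ATP1B1 spanned 167 to 374 CPM (median 289) and 29.1 to 72.7 CPM (median 51.1). Ipsilateral ATP1B2 spanned 24 to 85.2 CPM (median 50.8) in the isthmus and 11.1 to 27.9 CPM (median 17.8) in the ampulla, and contralateral ATP1B2 spanned 16.1 to 69.1 CPM (median 36.2) and 6.63 to 36.3 CPM (median 15). ATP1B1 did not overlap between regions, and ATP1B2 overlapped on both sides. ATP1B1 was 5.28-fold and 5.62-fold higher in the isthmus (log2 fold change 2.40, SE 0.15, adjusted p = 3.86e-13 ipsilaterally and log2 fold change 2.49, SE 0.13, adjusted p = 1.07e-14 contralaterally). ATP1B2 was 2.52-fold and 2.16-fold higher (log2 fold change 1.33, SE 0.16, adjusted p = 5.63e-08 and log2 fold change 1.11, SE 0.20, adjusted p = 4.33e-05). Mean levels of ATP1B1 in heifers, non-lactating cows and lactating cows were 321 ± 33.4, 224 ± 62.2 and 324 ± 49.6 CPM in the ipsilateral isthmus, 328 ± 38, 258 ± 69.3 and 275 ± 25.5 in the contralateral isthmus, 45.7 ± 11.5, 56.4 ± 24.2 and 58.6 ± 17.9 in the ipsilateral ampulla and 55.3 ± 12.3, 41.8 ± 15.8 and 56.3 ± 13 in the contralateral ampulla. Mean levels of ATP1B2 in heifers, non-lactating cows and lactating cows were 70.1 ± 9.62, 34 ± 8.89 and 48.4 ± 25.3 CPM in the ipsilateral isthmus, 49.2 ± 12.5, 31.2 ± 13.1 and 28 ± 4.03 in the contralateral isthmus, 17.6 ± 6.71, 16.9 ± 2.18 and 22.9 ± 5.19 in the ipsilateral ampulla and 14.5 ± 4.29, 15.6 ± 5.58 and 18.5 ± 12.6 in the contralateral ampulla. ATP1B3 passed only by the contralateral test, at 0.41 (SE 0.14), with 0.11 (SE 0.14) on the ipsilateral side.

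The alpha subunit of the epithelial sodium channel, SCNN1A, was higher in the isthmus, and the other subunits measured were not. Ipsilateral SCNN1A spanned 62.1 to 197 CPM (median 94.9) in the isthmus and 19.6 to 48.7 CPM (median 31.7) in the ampulla, and contralateral SCNN1A spanned 47.1 to 123 CPM (median 63.6) and 23.2 to 42.4 CPM (median 31.4). The regions did not overlap on either side. SCNN1A was 3.24-fold higher in the ipsilateral isthmus (log2 fold change 1.70, SE 0.14, adjusted p = 8.47e-11) and 2.06-fold higher in the contralateral isthmus (log2 fold change 1.05, SE 0.11, adjusted p = 1.68e-08). Mean levels of SCNN1A in heifers, non-lactating cows and lactating cows were 157 ± 36.4, 76.1 ± 19.5 and 93.7 ± 28.9 CPM in the ipsilateral isthmus, 89.2 ± 23.3, 62 ± 13.2 and 56.2 ± 8.61 in the contralateral isthmus, 31.5 ± 11, 30.9 ± 4.99 and 32.2 ± 9.21 in the ipsilateral ampulla and 33.6 ± 5.3, 33.1 ± 5.55 and 31.3 ± 8.62 in the contralateral ampulla. The gamma subunit SCNN1G and the delta subunit SCNN1D were lower in the ipsilateral isthmus (log2 fold change -1.16, SE 0.40, adjusted p = 0.0176 and log2 fold change -0.49, SE 0.20, adjusted p = 0.0402). Contralaterally they had log2 fold changes of -0.86 (adjusted p = 0.0797) and -0.35 (adjusted p = 0.416). The call of SCNN1D was lost without the libraries of doubtful label (adjusted p = 0.079) and without a filter on low counts (adjusted p = 0.0905).

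**Figure D2:**
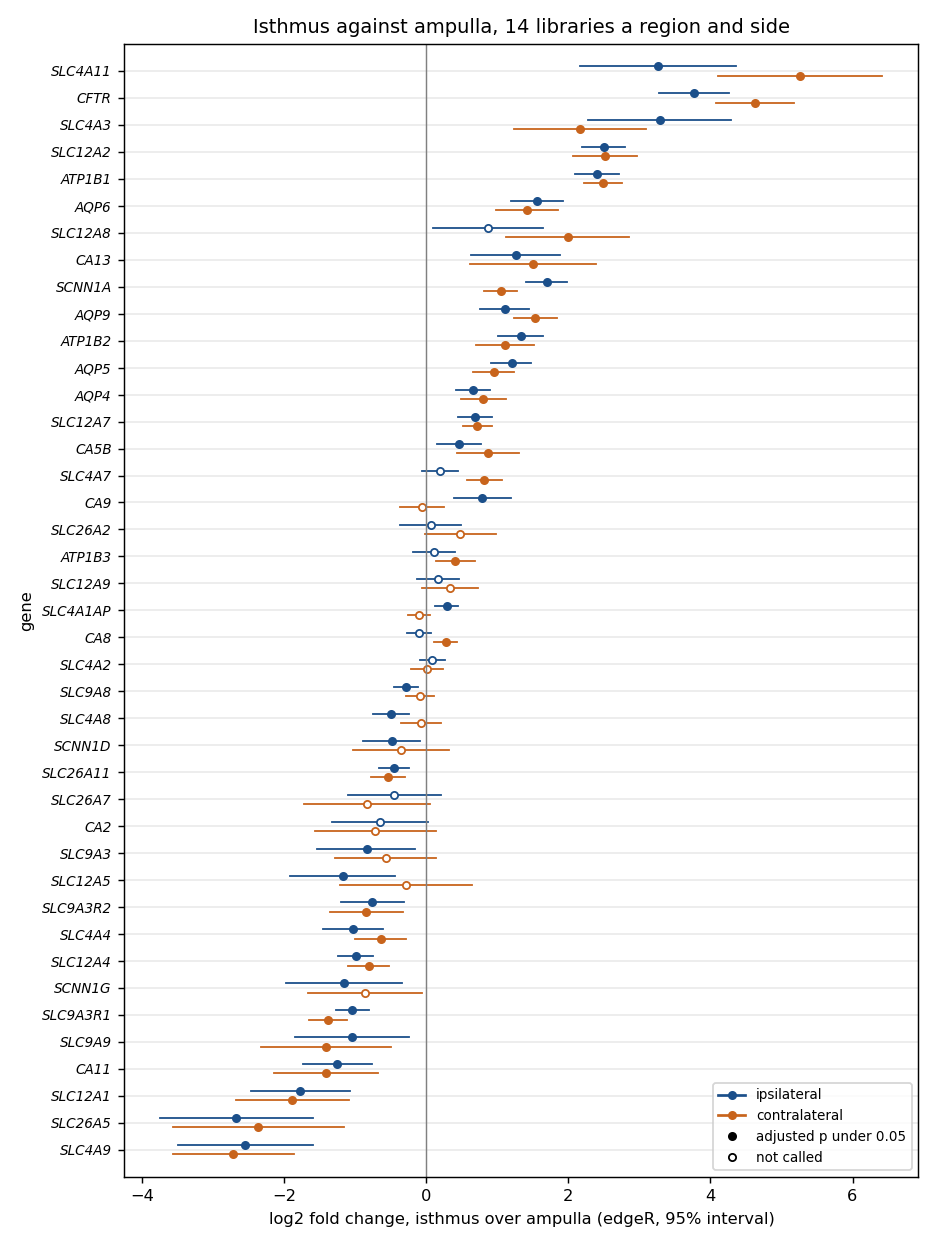
Each row is 1 gene, points are log2 fold changes of isthmus over ampulla from edgeR on the ipsilateral (blue) and contralateral (orange) side, lines are 95% intervals and filled points passed an adjusted p under 0.05. CFTR, SLC12A2 and ATP1B1 lie to the right of 2 on both sides and SLC26A5 and SLC4A9 to the left of -2, and CA10 is left out because it had no counts in the contralateral ampulla.

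Among the bicarbonate transporters, the electrogenic sodium-bicarbonate cotransporter SLC4A4 was lower in the isthmus on both sides. Ipsilateral SLC4A4 spanned 2.31 to 18.2 CPM (median 10.4) in the isthmus and 9.13 to 33.5 CPM (median 20.2) in the ampulla, and contralateral SLC4A4 spanned 7.11 to 21.7 CPM (median 12) and 11.3 to 31.3 CPM (median 19.6). Its log2 fold changes were -1.03 (SE 0.21, adjusted p = 0.000137) ipsilaterally and -0.64 (SE 0.17, adjusted p = 0.00392) contralaterally. The electroneutral cotransporter SLC4A7 was higher in the isthmus only by the contralateral test. Ipsilateral SLC4A7 spanned 90.9 to 185 CPM (median 126) in the isthmus and 59.2 to 140 CPM (median 109) in the ampulla, and contralateral SLC4A7 spanned 156 to 316 CPM (median 201) and 65.1 to 170 CPM (median 125). Contralateral SLC4A7 was higher in the isthmus in 14 of 14 animals (log2 fold change 0.82, SE 0.12, adjusted p = 2.72e-06), and ipsilateral SLC4A7 had a log2 fold change of 0.19 (95% interval -0.06 to 0.45, adjusted p = 0.201). Mean levels of SLC4A7 in heifers, non-lactating cows and lactating cows were 117 ± 24.2, 128 ± 25.6 and 146 ± 33.2 CPM in the ipsilateral isthmus, 197 ± 34.6, 219 ± 61.2 and 207 ± 32.2 in the contralateral isthmus, 111 ± 25.3, 108 ± 18.5 and 116 ± 38.4 in the ipsilateral ampulla and 107 ± 24.6, 114 ± 24.5 and 134 ± 37.4 in the contralateral ampulla.

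The chloride-bicarbonate exchangers of the family also divided. SLC4A3 was higher in the isthmus on both sides (3.29, SE 0.49 and 2.17, SE 0.46), and SLC4A9 was lower (-2.54, SE 0.46 and -2.72, SE 0.42). Both were near the floor of detection in 1 region. SLC4A3 had 36 and 67 counts in all in the ipsilateral and contralateral ampulla, with 2 of 14 libraries at 0 on each side, and SLC4A9 had 24 and 26 counts in the isthmus, with 6 and 4 libraries at 0. SLC4A2 passed on neither side, with log2 fold changes of 0.087 and 0.018 and 95% intervals of -0.092 to 0.27 and -0.21 to 0.24. SLC4A8, a sodium-driven exchanger, was lower in the ipsilateral isthmus (log2 fold change -0.49, SE 0.12, adjusted p = 0.00152) and had -0.073 (SE 0.14) contralaterally. SLC4A11 was close to the floor of detection. Ipsilateral SLC4A11 spanned 0.296 to 5.3 CPM (median 1.94) in the isthmus and 0 to 0.91 CPM (median 0.0939) in the ampulla, and contralateral SLC4A11 spanned 0 to 5.7 CPM (median 2.77) and 0 to 0.346 CPM (median 0). Its summed counts were 153 and 177 in the ipsilateral and contralateral isthmus and 14 and 5 in the ampulla, where 7 and 10 of 14 libraries were at 0. SLC4A11 passed on both sides (log2 fold change 3.26, SE 0.54, adjusted p = 1.15e-05 and log2 fold change 5.26, SE 0.56, adjusted p = 4.22e-08). SLC4A3, SLC4A9 and SLC4A11 each entered through 1 region alone on both sides and had to differ. Their tests between regions are therefore no evidence of a difference. Mean levels of SLC4A11 in heifers, non-lactating cows and lactating cows were 2.38 ± 1.69, 1.51 ± 1.19 and 2.67 ± 1.59 CPM in the ipsilateral isthmus, 3.47 ± 0.958, 2.67 ± 2.06 and 2.7 ± 1.7 in the contralateral isthmus, 0.295 ± 0.222, 0.182 ± 0.407 and 0.141 ± 0.179 in the ipsilateral ampulla and 0.111 ± 0.159, 0 ± 0 and 0.0914 ± 0.106 in the contralateral ampulla.

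Of the 3 sodium-proton exchangers compared, which export acid, 3 passed ipsilaterally and 1 contralaterally, each lower in the isthmus. The apical exchanger SLC9A3 spanned 0.268 to 3.9 CPM (median 1.9) in the ipsilateral isthmus and 0.683 to 6.16 CPM (median 3.29) in the ipsilateral ampulla. It was lower in the ipsilateral isthmus (log2 fold change -0.84, SE 0.34, adjusted p = 0.0392), not without the libraries of doubtful label (log2 fold change -0.70, adjusted p = 0.135), and had -0.57 contralaterally (adjusted p = 0.189). The ipsilateral call of SLC9A3 was also lost without a filter on low counts (adjusted p = 0.0581). The endosomal exchanger SLC9A9 was lower in the isthmus on both sides (-1.04, SE 0.39 and -1.41, SE 0.45), and SLC9A8 of the Golgi passed ipsilaterally (-0.29, SE 0.081, with -0.086 contralaterally).

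SLC9A3R1, the PDZ scaffold NHERF1 that holds CFTR and SLC9A3 at the apical membrane, was lower in the isthmus. Ipsilateral SLC9A3R1 spanned 149 to 318 CPM (median 204) in the isthmus and 338 to 690 CPM (median 409) in the ampulla, and contralateral SLC9A3R1 spanned 136 to 265 CPM (median 173) and 349 to 871 CPM (median 425). The regions did not overlap on either side. The fold was 2.06 ipsilaterally (log2 fold change -1.04, SE 0.11, adjusted p = 1.38e-08) and 2.61 contralaterally (log2 fold change -1.38, SE 0.13, adjusted p = 1.35e-09). Mean levels of SLC9A3R1 in heifers, non-lactating cows and lactating cows were 200 ± 46.2, 261 ± 68.1 and 194 ± 35.2 CPM in the ipsilateral isthmus, 159 ± 22.3, 187 ± 49.1 and 188 ± 54 in the contralateral isthmus, 433 ± 49, 420 ± 64 and 463 ± 152 in the ipsilateral ampulla and 512 ± 205, 443 ± 74.5 and 431 ± 78.5 in the contralateral ampulla. The related scaffold SLC9A3R2 was also lower in the isthmus (-0.76, SE 0.22 and -0.84, SE 0.25). SLC4A1AP passed ipsilaterally (0.29, SE 0.078) and had -0.10 (SE 0.075) contralaterally.

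In the SLC26 family of anion transporters, SLC26A5 and SLC26A11 were lower in the isthmus on both sides. SLC26A11, a sulfate transporter, had log2 fold changes of -0.45 (SE 0.10) and -0.54 (SE 0.12). SLC26A5, the motor protein prestin of cochlear hair cells, had 35 and 23 counts in all in the ipsilateral and contralateral isthmus, with 8 and 6 of 14 libraries at 0, and 190 and 145 counts in the ampulla. Its means were 0.452 and 0.351 CPM in the isthmus and 2.75 and 2.13 CPM in the ampulla. It entered through the ampulla alone and had to differ. The sulfate transporter SLC26A2 (0.064 and 0.48) and SLC26A7 (-0.45 and -0.84) passed on neither side.

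The carbonic anhydrases include enzymes that interconvert carbon dioxide and bicarbonate and, in CA8, CA10 and CA11, related proteins without catalytic activity. CA10 was found in the isthmus and hardly in the ampulla. CA10 spanned 1.83 to 9.93 CPM (median 3.91) in the ipsilateral isthmus, 2.67 to 20.4 CPM (median 8.43) in the contralateral isthmus and 0 to 0.596 CPM (median 0) in the ipsilateral ampulla. In the ampulla 5 counts were found in 2 ipsilateral libraries and 0 counts in the 14 contralateral libraries. By summed counts the ipsilateral ratio of isthmus to ampulla was 62.9 (95% interval 26.7 to 195, counting error only). It was 113 without the libraries of doubtful label (31 to 936), which leaves 2 counts in the ampulla. Contralateral CA10 had 546 counts in the isthmus, with a lower 95% limit of 178 on the ratio to the ampulla (counting error only). In the edgeR fits CA10 passed ipsilaterally (adjusted p = 4.15e-09) and contralaterally (adjusted p = 2.81e-09). It entered through the isthmus alone and had to differ, so these tests are no evidence of a difference. Mean levels of CA10 in heifers, non-lactating cows and lactating cows were 3.62 ± 1.48, 5.23 ± 4.05 and 5.46 ± 1.98 CPM in the ipsilateral isthmus and 10.6 ± 7.22, 9.06 ± 2.96 and 7.6 ± 5.2 in the contralateral isthmus. The 2 ipsilateral ampulla libraries with CA10 counts were a non-lactating library of doubtful label and a lactating one. CA11 was lower in the isthmus on both sides (-1.25, SE 0.24 and -1.41, SE 0.36), and CA8 passed only by the contralateral test (0.27, SE 0.077, with -0.10, SE 0.082 ipsilaterally).

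Of the catalytic enzymes, the cytosolic CA13 (1.26, SE 0.30 and 1.50, SE 0.43) and the mitochondrial CA5B were higher in the isthmus on both sides. Ipsilateral CA5B spanned 3.3 to 10.1 CPM (median 7.54) in the isthmus and 3.86 to 8.59 CPM (median 5.02) in the ampulla, and contralateral CA5B spanned 7.06 to 20.1 CPM (median 10.6) and 1.5 to 11.4 CPM (median 6.17). CA5B had log2 fold changes of 0.46 (SE 0.15) and 0.87 (SE 0.21), the ipsilateral one with an adjusted p of 0.0142, and 0.0569 without the libraries of doubtful label. Mean levels of CA5B in heifers, non-lactating cows and lactating cows were 6.91 ± 1.52, 7.13 ± 2.95 and 8.51 ± 1.35 CPM in the ipsilateral isthmus, 13 ± 2.63, 10.6 ± 0.938 and 12.4 ± 5.87 in the contralateral isthmus, 4.83 ± 0.73, 4.92 ± 0.584 and 6.32 ± 1.88 in the ipsilateral ampulla and 5.92 ± 2.73, 6.15 ± 3.29 and 7.43 ± 2.45 in the contralateral ampulla. CA9, a membrane-bound enzyme of the cell surface, was higher in the ipsilateral isthmus (log2 fold change 0.79, SE 0.19, adjusted p = 0.0012) and had -0.053 contralaterally (adjusted p = 0.812). The cytosolic CA2 varied widely, from 0 to 37.2 CPM in the ipsilateral isthmus and 5.24 to 38.3 CPM in the ipsilateral ampulla. CA2 had log2 fold changes of -0.65 (adjusted p = 0.101) and -0.72 (adjusted p = 0.17), and passed ipsilaterally with the animal as a block (log2 fold change -0.73, adjusted p = 0.0448).

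All 4 aquaporins were higher in the isthmus on both sides. Ipsilateral AQP5 spanned 69.9 to 179 CPM (median 109) in the isthmus and 25.1 to 69.2 CPM (median 46.9) in the ampulla, and contralateral AQP5 spanned 64.4 to 110 CPM (median 95.1) and 24.6 to 107 CPM (median 49.8). AQP5, the apical water channel of glands, did not overlap between regions on the ipsilateral side and overlapped on the contralateral side. It was 2.3-fold (log2 fold change 1.20, SE 0.14, adjusted p = 4.04e-08) and 1.93-fold higher (log2 fold change 0.95, SE 0.14, adjusted p = 4.27e-06). Mean levels of AQP5 in heifers, non-lactating cows and lactating cows were 135 ± 38, 101 ± 22.7 and 107 ± 24.4 CPM in the ipsilateral isthmus, 95.6 ± 18, 87.3 ± 8.5 and 91 ± 11.5 in the contralateral isthmus, 56.4 ± 11.3, 49.6 ± 12.7 and 41.3 ± 16.5 in the ipsilateral ampulla and 64 ± 24.3, 39.3 ± 17.3 and 41.3 ± 12 in the contralateral ampulla. Ipsilateral AQP9 spanned 441 to 1690 CPM (median 694) in the isthmus and 154 to 501 CPM (median 337) in the ampulla, and contralateral AQP9 spanned 489 to 1270 CPM (median 856) and 197 to 476 CPM (median 298). AQP9, which passes glycerol and urea as well as water, did not overlap contralaterally. Its log2 fold changes were 1.11 (SE 0.17, adjusted p = 3.34e-06) and 1.54 (SE 0.15, adjusted p = 1.54e-09). Mean levels of AQP9 in heifers, non-lactating cows and lactating cows were 716 ± 83.9, 561 ± 117 and 921 ± 525 CPM in the ipsilateral isthmus, 903 ± 186, 837 ± 286 and 898 ± 139 in the contralateral isthmus, 314 ± 73, 332 ± 33.6 and 339 ± 180 in the ipsilateral ampulla and 298 ± 73.3, 308 ± 71.5 and 299 ± 131 in the contralateral ampulla. Ipsilateral AQP6 spanned 7.22 to 18.7 CPM (median 11.8) in the isthmus and 1.85 to 7.69 CPM (median 3.82) in the ampulla, and contralateral AQP6 spanned 8.74 to 23.8 CPM (median 15.3) and 0.957 to 15.5 CPM (median 4.64). AQP6, which also passes anions, overlapped on both sides. Its log2 fold changes were 1.56 (SE 0.18, adjusted p = 4.02e-08) and 1.42 (SE 0.21, adjusted p = 3.74e-06). Mean levels of AQP6 in heifers, non-lactating cows and lactating cows were 14.8 ± 3.56, 11.3 ± 4.14 and 10.9 ± 1.09 CPM in the ipsilateral isthmus, 17.2 ± 4.8, 15 ± 3.88 and 11.4 ± 1.84 in the contralateral isthmus, 4.68 ± 1.42, 4.68 ± 2.4 and 3.01 ± 0.442 in the ipsilateral ampulla and 8.22 ± 4.24, 2.77 ± 1.17 and 6.37 ± 3.78 in the contralateral ampulla. AQP4, a basolateral water channel, had smaller differences of 0.66 (SE 0.12) and 0.80 (SE 0.15), and was higher in the isthmus in 10 of 10 and 14 of 14 animals.

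A list of 91 related genes held regulators of the transporters, tight junction proteins, proton pumps and other channels. Of its 70 genes tested on each side, 47 passed ipsilaterally (67.1%, 20 higher in the isthmus and 27 lower) and 40 contralaterally (57.1%, 20 and 20), where 49.6 and 42.5% of all genes did. The 47 and the 40 include genes that reached a mean of 1 CPM in 1 region alone. PDZK1 was among them on both sides, and KCNQ1 and CLDN2 were ipsilaterally. Without the libraries of doubtful label 43 passed ipsilaterally. PDZK1, a PDZ scaffold of the same family as SLC9A3R1, spanned 90.7 to 560 CPM (median 194) in the ipsilateral isthmus and 0 to 1.74 CPM (median 0.373) in the ipsilateral ampulla. In the ampulla PDZK1 had 35 and 32 counts in all on the ipsilateral and contralateral side, with 5 and 3 of 14 libraries at 0. It entered through the isthmus and had to differ, so its fold rests on a level near the floor of detection. Its adjusted p was the smallest of the list on both sides (log2 fold change 8.83, SE 0.37, adjusted p = 2.16e-16 and log2 fold change 8.12, SE 0.54, adjusted p = 1.33e-12). The direction was opposite to that of SLC9A3R1. The tight junction protein CLDN4 (1.51, SE 0.11 ipsilaterally), the mitochondrial sodium-calcium exchanger SLC8B1 (1.36, SE 0.11 and 1.56, SE 0.13) and the proton pump subunit ATP6V0A4 (3.27, SE 0.27 contralaterally) were higher in the isthmus. ANO1, the calcium-activated chloride channel, was chosen after its values were seen. It was lower in the isthmus, at 2.31 to 55.4 CPM (median 21.2) against 63.3 to 153 CPM (median 86.4) ipsilaterally (log2 fold change -1.98, SE 0.21, adjusted p = 8.2e-09), in the opposite direction to CFTR.

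The side of the CL was examined next, since the ipsilateral oviduct lies beside the ovulating ovary and receives the oocyte. In the isthmus, SCNN1A, of the channel for sodium absorption, was higher on the ipsilateral side in 14 of 14 animals, while SLC4A7 was lower in 14 of 14 and CFTR in 13 of 14. With the metabolic groups averaged, 9 of 40 genes tested passed (22.5%), 4 higher and 5 lower on the ipsilateral side. This share is near that of all genes, of which 27.2% of 15031 passed, 14.3% higher and 12.9% lower. SLC4A9 and SLC26A5 were too low in the isthmus to be tested. With the animal as a block 31.7% of all genes passed and 14 of the 40 (35%), the 9 and SLC4A8, CA13, SLC12A1, AQP9 and SLC9A3R1. DESeq2 passed 12, the 9 and SLC4A8, CA13 and SLC12A1. No share of all genes is given for the DESeq2 counts, here or below, so they have none to be set against.

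SCNN1A, at 62.1 to 197 CPM (median 94.9) ipsilaterally and 47.1 to 123 CPM (median 63.6) contralaterally, overlapped between sides, while each animal was higher on its ipsilateral side. It was 1.52-fold higher (log2 fold change 0.60, SE 0.12, adjusted p = 0.000622). The beta subunit ATP1B2 was higher in 13 of 14 animals (log2 fold change 0.46, SE 0.16, adjusted p = 0.0348), the water channel AQP5 in 12 of 14 (log2 fold change 0.30, SE 0.11, adjusted p = 0.0371) and SLC4A1AP in 11 of 14 (log2 fold change 0.21, SE 0.066, adjusted p = 0.0197). No member separated the sides of the isthmus without overlap, and 0.146% of all genes did.

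Lower on the ipsilateral side were transporters of bicarbonate and chloride and 2 carbonic anhydrase family members. SLC4A7 was 90.9 to 185 CPM (median 126) in the ipsilateral isthmus and 156 to 316 CPM (median 201) in the contralateral isthmus. The groups overlapped by a few libraries. The fold was 1.61 (log2 fold change -0.69, SE 0.11, adjusted p = 4.93e-05). CFTR was 15.2 to 165 CPM (median 45.2) ipsilaterally and 40 to 198 CPM (median 82.2) contralaterally, 1.96-fold lower on the ipsilateral side (log2 fold change -0.97, SE 0.26, adjusted p = 0.0056). CA5B (log2 fold change -0.68, SE 0.16, adjusted p = 0.00235) was lower in 13 of 14 animals and the catalytically inactive CA10 (log2 fold change -0.96, SE 0.30, adjusted p = 0.0186) in 11 of 14. The potassium-chloride cotransporter SLC12A7 was lower in 9 of 14 animals (log2 fold change -0.28, SE 0.10, adjusted p = 0.0303), a call lost without a filter on low counts (adjusted p = 0.0627).

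SLC12A2, ATP1B1, SLC4A4, SLC9A3 and CA2 did not pass between sides of the isthmus. SLC12A2 had a log2 fold change of 0.19 (95% interval -0.15 to 0.54), ATP1B1 of -0.012 (-0.21 to 0.19), SLC4A4 of -0.29 (-0.71 to 0.12), SLC9A3 of -0.093 (-0.75 to 0.56) and CA2 of 0.43 (-0.54 to 1.39). Their adjusted p-values ran from 0.308 to 0.945. Among marker genes, 4 of 8 secretory and 4 of 6 epithelial markers were higher in the ipsilateral isthmus, and 1 of 15 ciliated markers was lower. Summed secretory markers were 3790 to 25200 CPM ipsilaterally and 1840 to 26100 CPM contralaterally, and summed epithelial markers 1370 to 2060 and 1220 to 1670 CPM. Of 7 fibroblast markers tested 1 was lower ipsilaterally (summed 88.3 to 243 CPM, median 160, against 90.7 to 618 CPM, median 246). Of 5 endothelial markers 1 was higher and 1 lower (summed medians 30.9 and 45.7 CPM), of 6 smooth muscle markers 1 was higher (summed medians 110 and 75.9 CPM), and of 7 leukocyte markers 0 passed. Their part in the differences between sides was not tested.

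**Figure D3:**
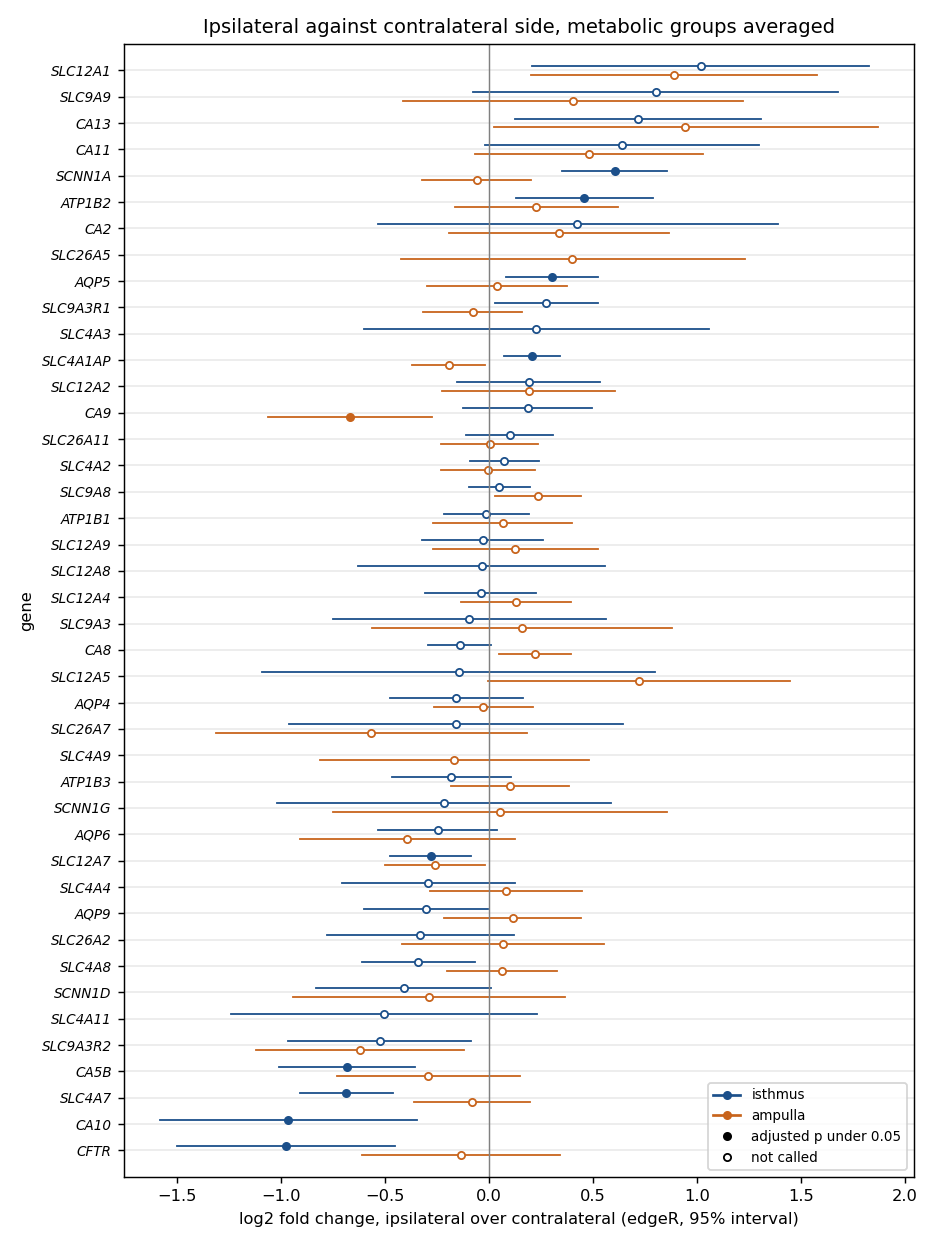
Each row is 1 gene, points are log2 fold changes of the ipsilateral over the contralateral side from edgeR in the isthmus (blue) and the ampulla (orange), lines are 95% intervals and filled points passed an adjusted p under 0.05. In the isthmus 4 filled points lie to the right of 0 and 5 to the left, and in the ampulla only CA9 is filled.

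Of the related genes, 25 of 68 passed between sides of the isthmus (36.8%, where 27.2% of all genes did), 13 higher and 12 lower ipsilaterally. CLDN10, a claudin of the paracellular ion path, spanned 36.9 to 98.3 CPM (median 68.4) ipsilaterally and 70 to 316 CPM (median 166) contralaterally and was lower on the ipsilateral side in 14 of 14 animals (log2 fold change -1.44, SE 0.17, adjusted p = 9.64e-07). HSD11B2, the enzyme that inactivates cortisol and so leaves the mineralocorticoid receptor to aldosterone, spanned 3.73 to 11.5 CPM (median 6.52) and 1.07 to 4.49 CPM (median 2.74). It was higher ipsilaterally in 14 of 14 animals (log2 fold change 1.42, SE 0.19, adjusted p = 5.55e-06). EZR, ezrin, which ties SLC9A3R1 to the actin skeleton, was also higher in 14 of 14 (log2 fold change 0.48, SE 0.068, adjusted p = 1.11e-05). NR3C2, the mineralocorticoid receptor itself, chosen after its values were seen, was lower ipsilaterally in 13 of 14 animals (log2 fold change -0.63, SE 0.11, adjusted p = 0.000129).

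Within metabolic groups fewer genes passed. In heifers 5 of 33 passed (10% of all genes did), SCNN1A higher and SLC4A7, CA5B, SLC26A2 and CA10 lower in the ipsilateral isthmus. SCNN1A was 150, 184, 197, 103 and 152 CPM in the ipsilateral isthmus of heifers A to E and 81.6, 99.1, 123, 80.4 and 61.4 CPM in the contralateral isthmus. Each heifer was higher on its ipsilateral side, while the groups overlapped. SCNN1A (log2 fold change 0.79, SE 0.20, adjusted p = 0.026), SLC4A7 (-0.78, SE 0.15), CA5B (-0.92, SE 0.21), SLC26A2 (-1.12, SE 0.28) and CA10 (-1.58, SE 0.46) each moved the same way in 5 of 5 heifers. All 5 calls were lost without heifer E, and 2 genes passed without heifer A, 1 without heifer B and 3 without heifer C. The shares of all genes that passed without these heifers are not given, so these counts have none to be set against. With the animal as a block 8 passed (24.2%, where 14.1% of all genes did), among them CFTR (log2 fold change -0.79, adjusted p = 0.015) and AQP5 (0.45, adjusted p = 0.0484).

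In non-lactating cows 2 of 35 genes passed (5.11% of all genes), SLC4A7 and CFTR, both lower in the ipsilateral isthmus. For CFTR the ipsilateral values in cows A to E were 55.6, 15.3, 44.5, 15.2 and 27.4 CPM and the contralateral values 128, 47.6, 173, 83.2 and 50.6 CPM. Each cow was lower on the ipsilateral side, while the groups overlapped (log2 fold change -1.63, SE 0.42, adjusted p = 0.0445). SLC4A7 was lower in 5 of 5 cows (log2 fold change -0.78, SE 0.19, adjusted p = 0.0323). Leaving out any 1 of cows A to D left 0 calls, and leaving out cow E left 1. The shares of all genes that passed without these cows are not given. DESeq2 passed 4 genes, these and SLC12A1 and SLC12A4.

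In lactating cows 0 of 35 genes passed with edgeR (0.187% of all genes passed), 4 at an unadjusted p under 0.05 (12.2% of all genes), 1 with DESeq2 (SCNN1A) and 1 with the animal as a block (2.32% of all genes, SLC4A7, log2 fold change -0.52, adjusted p = 0.0361). SCNN1A was 70.2, 82, 136 and 87 CPM ipsilaterally and 63.5, 63.7, 47.1 and 50.7 CPM contralaterally in lactating cows A to D, without overlap (log2 fold change 0.74, SE 0.21, adjusted p = 0.194). A call in 1 metabolic group and not in another does not show a difference between them. The test of that difference gave 0 of 40 genes in the isthmus and 0 of 38 in the ampulla with edgeR and with DESeq2. At an unadjusted p under 0.05 there were 3 in the isthmus (2.05% of all genes) and 1 in the ampulla (1.15% of all genes). Without the libraries of doubtful label the ampulla had 0 at that threshold (0.815% of all genes).

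Between sides of the ampulla 1 of 38 genes passed (2.63%), where 4.09% of all genes did. It was CA9, at 2.43 to 9.47 CPM (median 5.1) ipsilaterally and 5.05 to 15.4 CPM (median 7.84) contralaterally, lower on the ipsilateral side in 9 of 10 animals (log2 fold change -0.67, SE 0.19, adjusted p = 0.0455). Mean levels of CA9 in heifers, non-lactating cows and lactating cows were 11.3 ± 2.88, 8.13 ± 1.93 and 7.87 ± 3.2 CPM in the ipsilateral isthmus, 6.81 ± 1.05, 9.95 ± 0.982 and 7.09 ± 2.58 in the contralateral isthmus, 5 ± 1.66, 5.33 ± 1.52 and 5.12 ± 3.1 in the ipsilateral ampulla and 6.09 ± 1.07, 8.13 ± 2.06 and 10.8 ± 3.58 in the contralateral ampulla. The call was lost without the 4 libraries of doubtful label (log2 fold change -0.72), without a filter on low counts, and on leaving out any 1 of 11 of the 14 animals. With the animal as a block 2 genes passed (6.31% of all genes did), CA9 and SLC12A1 (0.96, adjusted p = 0.0143), and 0 with the block but without the doubtful libraries. CA10, SLC4A3, SLC4A11 and SLC12A8 were too low in the ampulla to be tested. Genes that passed in the isthmus had log2 fold changes here of -0.059 (95% interval -0.32 to 0.20) for SCNN1A and -0.13 (-0.61 to 0.34) for CFTR. The values of SLC12A2 (0.19), ATP1B1 (0.067), AQP5 (0.041), SLC4A4 (0.082), SLC9A3 (0.16) and CA2 (0.34) all had intervals that include 0. Within single metabolic groups 0 members passed in the ampulla with edgeR or DESeq2, where 0, 0.0947 and 0% of all genes passed in heifers, non-lactating and lactating cows. At an unadjusted p under 0.05 there were 4 of 36, 2 of 37 and 2 of 35 members, against 9.20, 11.1 and 4.26% of all genes. With the animal as a block 1 passed in non-lactating cows (SLC12A1, 1.28, adjusted p = 0.0458, where 1.08% of all genes passed). Without the libraries of doubtful label 0 passed in each group, with 3, 2 and 0 at an unadjusted p under 0.05. Of the 68 related genes 4 passed (5.88%) and 0 without these libraries. Of the 4, 3 were higher and 1 lower ipsilaterally, and the list was led by CLDN10 (-0.66, SE 0.15), OXSR1 (0.38, SE 0.087), a kinase that activates SLC12A2, and ATP6V0A4 (1.24, SE 0.31).

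**Figure D4:**
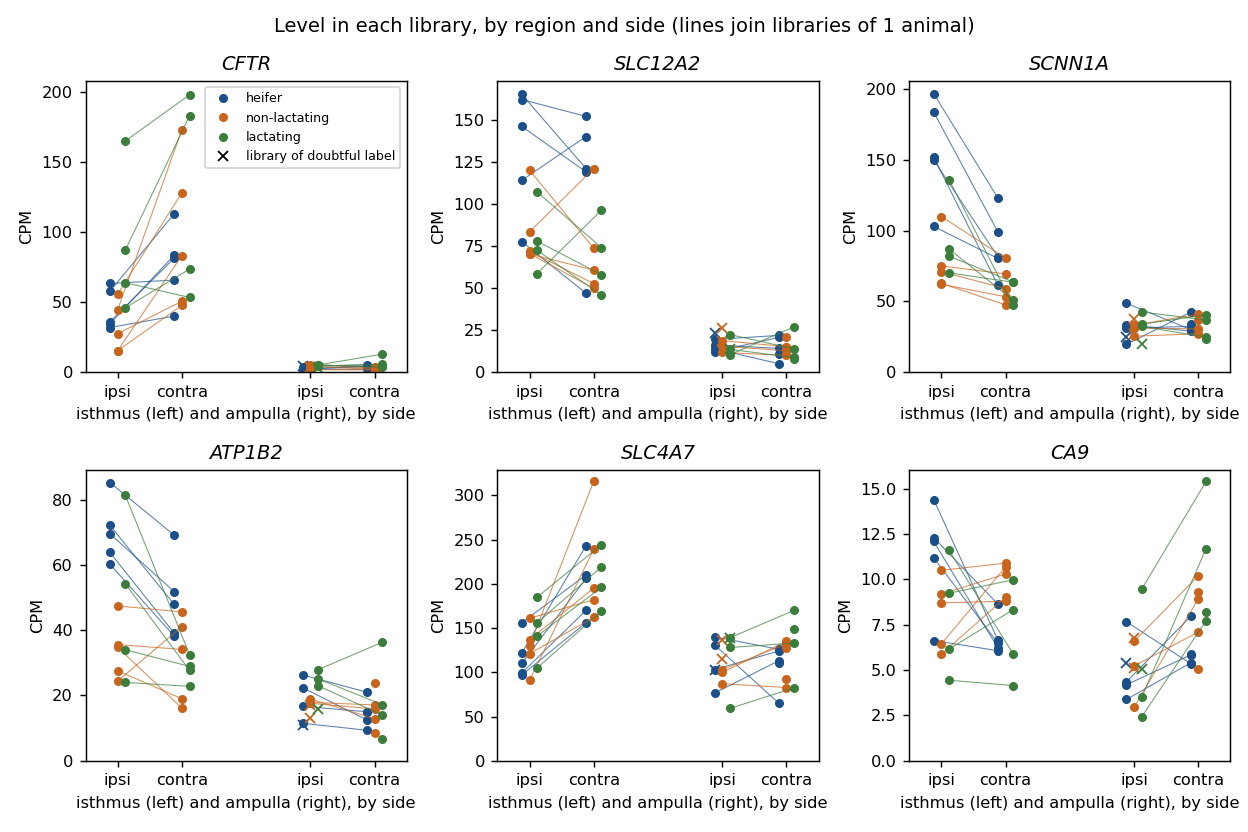
Each point is the CPM of 1 library, in the isthmus (left of each panel) and ampulla (right) of the ipsilateral and contralateral side, coloured by metabolic group, with lines that join the libraries of 1 animal and crosses for the 4 libraries of doubtful label. SCNN1A falls and SLC4A7 rises from the ipsilateral to the contralateral isthmus in each of the 14 animals, and CFTR and SLC12A2 are low in every ampulla library.

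Whether the side mattered differently in the 2 regions was tested on all 56 libraries as the side effect in the isthmus minus that in the ampulla. Of the 42 genes 5 passed (11.9%), where 4.95% of all genes did. The difference was positive for SCNN1A (log2 fold change 0.66, SE 0.18, adjusted p = 0.0241), CA9 (log2 fold change 0.85, SE 0.24, adjusted p = 0.03) and SLC4A1AP (log2 fold change 0.40, SE 0.11, adjusted p = 0.0216) and negative for SLC4A7 (log2 fold change -0.61, SE 0.18, adjusted p = 0.0332) and CA8 (log2 fold change -0.37, SE 0.11, adjusted p = 0.0441). Ipsilateral CA8 spanned 78.7 to 138 CPM (median 109) in the isthmus and 90.7 to 167 CPM (median 112) in the ampulla, and contralateral CA8 spanned 101 to 167 CPM (median 117) and 82.6 to 122 CPM (median 95). Ipsilateral CA9 spanned 4.44 to 14.4 CPM (median 9.21) in the isthmus and 2.43 to 9.47 CPM (median 5.1) in the ampulla, and contralateral CA9 spanned 4.15 to 10.9 CPM (median 8.49) and 5.05 to 15.4 CPM (median 7.84). Ipsilateral SLC4A1AP spanned 62.5 to 104 CPM (median 81.6) in the isthmus and 47.2 to 80.3 CPM (median 62.4) in the ampulla, and contralateral SLC4A1AP spanned 58.3 to 78.7 CPM (median 67.4) and 53.6 to 89.4 CPM (median 71.4). For CA8 and SLC4A1AP the side effects of the 2 regions had opposite signs, -0.14 and 0.22 for CA8 and 0.21 and -0.19 for SLC4A1AP in the isthmus and the ampulla. Mean levels of CA8 in heifers, non-lactating cows and lactating cows were 112 ± 7.48, 99.5 ± 14.2 and 117 ± 17 CPM in the ipsilateral isthmus, 131 ± 21.8, 117 ± 15.3 and 111 ± 13.7 in the contralateral isthmus, 121 ± 19.5, 122 ± 25.9 and 105 ± 15.2 in the ipsilateral ampulla and 97.7 ± 8.57, 98.3 ± 14.6 and 99.5 ± 15.4 in the contralateral ampulla. Mean levels of SLC4A1AP in heifers, non-lactating cows and lactating cows were 81.3 ± 7.8, 83.1 ± 15.3 and 74.5 ± 9.57 CPM in the ipsilateral isthmus, 68.8 ± 8.24, 67.7 ± 3.88 and 68.6 ± 1.96 in the contralateral isthmus, 61.5 ± 6.63, 60.6 ± 10.5 and 71 ± 9.39 in the ipsilateral ampulla and 71 ± 7.81, 71.6 ± 13 and 76.6 ± 11.8 in the contralateral ampulla. CFTR, called in the isthmus alone, did not pass this test. Without the libraries of doubtful label 2 of the 5 calls remained (SLC4A1AP and CA8, where 2.73% of all genes passed). The call of CA8 was lost without a filter on low counts (adjusted p = 0.0791). Leaving out 1 animal gave 0 to 5 calls, with 0 without heifer E and 2 without lactating C, lactating D or non-lactating B. There were 3 without heifer A, heifer B, lactating B or non-lactating A, C or D. The shares of all genes with 1 animal left out are not given.

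The metabolic groups were compared in pairs within each region and side, 12 comparisons in all, to ask whether lactation or a first calving altered the transporters. In every one 0 members passed with edgeR, of 33 to 38 tested, with 0 to 9 at an unadjusted p under 0.05. Over all genes 0 passed in 11 of the comparisons and 1 of 13703 (0.00730%) when non-lactating cows were set against heifers in the ipsilateral isthmus. That comparison had the most members at an unadjusted p under 0.05, 9 of 36 (25%), where 11.8% of all genes had one. In the same tissue there were 7 of 37 for lactating cows against heifers (10.5% of all genes) and 4 of 38 for lactating against non-lactating cows (6.26%). In the contralateral isthmus the comparisons with heifers gave 8 of 35 for lactating (10.7%) and 5 of 33 for non-lactating cows (9.19%), and lactating against non-lactating cows gave 2 of 35 (3.94%). In the ampulla there were, on the ipsilateral side, 6 of 37 for lactating cows against heifers (7.16%), 0 of 35 for non-lactating cows against heifers (3.63%) and 1 of 37 between the cows (3.57%). Without the libraries of doubtful label these were 4 of 37 (8.18%), 3 of 37 (5.18%) and 1 of 36 (3.31%), and again 0 passed the adjusted threshold. On the contralateral side it gave 4 of 36 (4.73%), 3 of 36 (4.29%) and 2 of 36 (5.07%) in that order. With DESeq2, 2 members passed between non-lactating cows and heifers of the ipsilateral isthmus, 1 between lactating cows and heifers of the contralateral isthmus and 0 in the other 10. The share of all genes that DESeq2 passed in these comparisons is not given.

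The members with an unadjusted p under 0.01 were chosen after their values were seen, and none passed the adjusted threshold with edgeR. In the ipsilateral isthmus they include subunits of the sodium pump and of the sodium channel. ATP1B2 was 85.2, 60.2, 72.1, 69.5 and 63.8 CPM in heifers A to E, 35.6, 34.8, 47.4, 24.4 and 27.6 CPM in non-lactating cows A to E and 24, 34, 81.3 and 54.2 CPM in lactating cows A to D. Heifers and non-lactating cows did not overlap, and lactating cows spanned both (log2 fold change -1.03, SE 0.17, adjusted p = 0.0689 for non-lactating over heifer). SCNN1A was 150, 184, 197, 103 and 152 CPM, 110, 62.1, 75.1, 71 and 62.8 CPM and 70.2, 82, 136 and 87 CPM in the same order. Only the lowest heifer lay within the range of the non-lactating cows (log2 fold change -1.03, SE 0.19, adjusted p = 0.0848), and lactating cows had a log2 fold change of -0.72 (SE 0.22) against heifers. DESeq2 passed both genes in non-lactating cows against heifers, as did edgeR without a filter on low counts (adjusted p = 0.0263 for ATP1B2 and 0.0338 for SCNN1A).

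SLC12A2 averaged 133 ± 37.2 CPM in the ipsilateral isthmus of heifers, 83.1 ± 21.3 in non-lactating and 79 ± 20.5 in lactating cows, with overlapping libraries. Its log2 fold changes against heifers were -0.67 (SE 0.21) and -0.73 (SE 0.23, adjusted p = 0.242 and 0.343). ATP1B1 (-0.51, SE 0.17), SCNN1D (1.22, SE 0.34) and CA2 (1.84, SE 0.61) had adjusted p-values of 0.249, 0.203 and 0.26 between non-lactating cows and heifers. CFTR averaged 90.4 ± 52.5 CPM in the ipsilateral isthmus of lactating cows and 31.6 ± 18 CPM in that of non-lactating cows, a log2 fold change of 1.53 (SE 0.44) with an adjusted p of 0.779 and overlapping libraries.

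In the contralateral isthmus lactating cows had log2 fold changes against heifers of -0.81 (SE 0.18) for ATP1B2, -0.66 (SE 0.19) for SCNN1A, -0.70 (SE 0.20) for AQP4 and 1.74 (SE 0.55) for SLC12A1, each with an adjusted p of 0.372. ATP1B2 did not overlap between these groups, and it passed with DESeq2 (adjusted p = 0.027). Non-lactating cows had -0.77 (SE 0.20) for SLC12A4 (adjusted p = 0.467) and 0.55 (SE 0.18) for CA9 (adjusted p = 0.476) against heifers. In the ampulla AQP6 averaged 2.77 ± 1.17 CPM in non-lactating cows and 8.22 ± 4.24 CPM in heifers on the contralateral side (log2 fold change -1.53, SE 0.44, adjusted p = 0.999), without overlap.

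**Figure D5:**
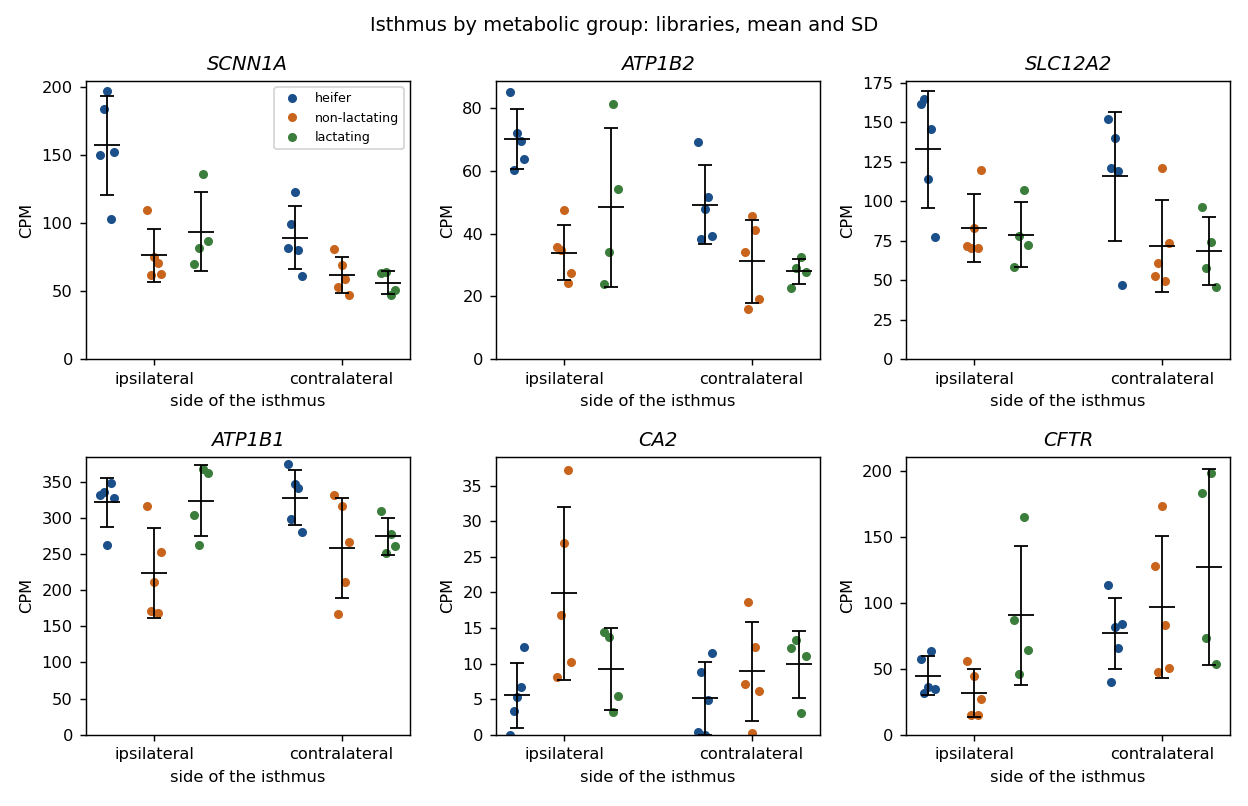
Each point is the CPM of 1 isthmus library, by side and metabolic group, with bars for the mean and SD of 4 or 5 animals (a bar that would reach below 0 ends at 0). Heifers have the highest mean of SCNN1A, ATP1B2 and SLC12A2 on both sides, and the groups of CFTR and CA2 overlap.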

How the data were processed

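Epithelial RNA of 56 tissues was sequenced single-end on a HiSeq 1500 after stranded library preparation that favours RNA other than ribosomal RNA (NuGEN Encore Complete). The values are raw counts per gene symbol, deposited as 1 table. The authors demultiplexed with bcl2fastq 1.8.4, trimmed the reads, mapped them with TopHat2 2.0.13 to the bovine build Btau_4.6.1 and counted with HTSeq 0.6.1 in the stranded, intersection-strict mode. Strict counting drops reads that reach past an annotated gene model, and only 8.66 to 13.7% of the tallied alignments fell on genes. The lines of the table that name no gene held 86.3 to 91.3% and stayed out of library sizes and tests. Each column was assigned to the condition in its name.

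Symbols were matched to the rule. Of the 81 genes it gave, 5 are not reported here and entered no list or count, and 75 of the other 76 were found in RefSeq (AQP12B was not). The members and the lists were chosen with earlier results of these data known. CPM values used TMM library sizes, and levels were not compared between genes because gene lengths of the files' build were not used here. Counts were tested with the quasi-likelihood test of edgeR 4.0.16 (R 4.3.3, limma 3.58.1) on genes kept by filterByExpr (minimum count 10), with a design of 1 mean per condition, Benjamini-Hochberg adjustment over all genes tested and a threshold of 0.05. Each fit held only the libraries of the comparison, so a log2 fold change comes from the fit and not from the printed means. Overall 25 comparisons were made, 2 of regions, 2 of sides averaged over groups, 6 of sides within groups, 12 of metabolic groups and 3 of differences between effects. Some fits were also run on simulated data with independent libraries and no effect of the animal, which cannot speak to the pairing. Their outcome is not given here.

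The number that ends a column name was taken as the animal's, since each number has 4 tissues. Their deviations from the condition means correlated with medians of 0.389 between sides of the isthmus, 0.266 between sides of the ampulla, and 0.214 and 0.209 between regions on the contralateral and ipsilateral side. In that order 11 of 14, 9 of 12, 12 of 14 and 9 of 12 pairs had a correlation above 0.1, and the lowest were -0.043, -0.006, 0.075 and 0.023. The libraries were paired by number, which these correlations do not bear out for every animal, nor for the 4 of doubtful label. Counts of animals and block fits rest on this pairing. Every replicate pair within a condition differed by more than counting noise (chi-square per degree of freedom at least 5.2). Alternatives were size factors (RLE), DESeq2 1.42.0, no filter, the animal as a block, no doubtful libraries and each animal left out. The block without the doubtful libraries, and the counts without genes that reached 1 CPM in 1 region alone, were added after seeing the data.

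Each compared gene was named at least once, each called gene with its direction, and full values were given for up to 10 called genes with the smallest adjusted p in each region and side comparison and for a panel of 12 transport genes. Of the related list, 3 genes were named per averaged comparison.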

Additional observations from a re-analysis of the deposited data

Results flagged for a closer look

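Within conditions of 4 or 5 libraries, 1 library stood apart by Dixon's 95% criterion on log2 values in 16 of 201 groups of the 17 genes described in full, where chance flags about 1 in 20 groups. Of the 16, 3 rest on 1 library with counts among libraries at 0. In heifers, the library of heifer B was lowest for contralateral isthmus AQP5 (64.4 CPM, the others 97.1 to 110). Heifer C was lowest for ipsilateral isthmus ATP1B1 (263, others 328 to 348) and highest for contralateral ampulla CA9 (7.96, others 5.36 to 5.88), heifer D was lowest for ipsilateral ampulla AQP9 (186, others 334 to 372), and heifer A was highest for contralateral isthmus CA9 (8.64, others 6.07 to 6.65). Heifer E was lowest for contralateral isthmus SLC12A2 (46.8, others 119 to 152) and, in the contralateral ampulla, for CA5B (1.5, others 5.81 to 8.47) and SLC4A7 (65.1, others 110 to 126).

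In non-lactating cows, cow E was lowest for contralateral isthmus CA10 (4.04 CPM, others 8.8 to 11.4). In the ipsilateral ampulla, cow B was lowest for ATP1B2 (13.2, others 17.1 to 18.9), in a library of doubtful label, and the library with the number of lactating cow B had CA10 at 0.596 CPM with the others at 0. Cow D had SLC4A11 at 0.91 CPM there with the others at 0. In lactating cows, cow A was highest for CA8 in the contralateral ampulla (122, others 89.4 to 94) and CA10 in the ipsilateral ampulla (0.351, others 0). Cow D was lowest for ipsilateral ampulla SLC4A7 (59.2, others 128 to 139) and highest for SLC9A3R1 (690, others 372 to 401).

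The interaction of side and region passed in edgeR for SLC4A1AP (log2 difference 0.40), SCNN1A (0.66), CA9 (0.85), SLC4A7 (-0.61) and CA8 (-0.37), where 4.95% of all genes passed. Without the libraries of doubtful label the calls of CA9 (adjusted p = 0.0505), SCNN1A (0.0679) and SLC4A7 (0.108) were lost. Every call was lost without heifer E.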

How the results depend on the processing

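Calls near the threshold limit what these data hold, and depth limits genes near 1 CPM. Of 84 called gene results DESeq2, RLE size factors and the animal as a block kept all 84, no filter lost 5, leaving out the doubtful libraries lost 8 of 39 and leaving out 1 animal at a time lost 108 of 1113. The block gave 14 called members between sides of the isthmus, 8 between sides of the heifer isthmus, 2 between sides of the ampulla, 1 between sides of the lactating isthmus and 1 between sides of the non-lactating ampulla, and its other changes stand beside their results. Block fits could not be made for the metabolic comparisons, which lie between animals.

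Between sides of the ampulla, no filter, no doubtful libraries and the block without them gave 0 called members. DESeq2 gave 12 between sides of the isthmus, 8 between sides of the heifer isthmus, 4 of the non-lactating isthmus, 1 of the lactating isthmus, 2 for non-lactating cows against heifers (ipsilateral isthmus, no filter also 2) and 1 for lactating cows against heifers (contralateral isthmus). The interaction of side and region gave 2 without the doubtful libraries. At a mean of 0.5 or 2 CPM, 47 or 36 members would be compared. With 1 animal left out, called members numbered 0 to 1 between sides of the ampulla, 0 to 6 in the heifer and 0 to 1 in the non-lactating isthmus, 0 to 1 for non-lactating cows against heifers (ipsilateral isthmus) and 0 to 5 for the interaction. The shares of all genes that passed with 1 animal left out are not given, so these counts have none to be set against.

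Directions turned only for values that had not passed, and the cause was not tested. No filter turned ATP1B1 between sides of the isthmus (0.0042). Leaving out the doubtful libraries turned AQP5 (-0.055) and SCNN1A (0.0076) between sides of the ampulla and SLC9A3 in the heifer ampulla (0.10, and 0.055 with the block). The block turned SLC12A2 in the lactating ampulla (-0.0077, and -0.0095 without the doubtful libraries). With 1 animal left out, log2 fold changes between sides of the ampulla ran from -0.062 to 0.12 for AQP5, -0.022 to 0.17 for ATP1B1, -0.23 to 0.022 for CFTR and -0.14 to 0.020 for SCNN1A, and in the isthmus from -0.026 to 0.031 for ATP1B1 and -0.26 to 0.068 for SLC9A3. In heifers they ran in the ampulla from -0.32 to 0.034 for AQP5, -0.33 to 0.13 for SCNN1A, -0.22 to 0.053 for SLC4A4 and -0.24 to 0.32 for SLC9A3, and in the isthmus from -0.11 to 0.031 for ATP1B1 and -0.19 to 0.51 for CA2. In non-lactating cows they ran from -0.29 to 0.26 for SLC4A4 in the isthmus. In lactating cows they ran in the ampulla from -0.32 to 0.19 for AQP5, -0.13 to 0.30 for ATP1B1, -0.026 to 0.68 for CA2, -0.092 to 0.20 for SCNN1A, -0.22 to 0.70 for SLC12A2 and -0.43 to 0.18 for SLC9A3, and in the isthmus from -0.30 to 0.14 for CA2.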

Other observations

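Some genes were high in single animals, chosen here after their values were seen. SCNN1G, the gamma subunit of the sodium channel, had its 3 highest values in lactating cow A, at 30.2 CPM in the contralateral ampulla, 23 CPM in the ipsilateral isthmus and 21.9 CPM in the ipsilateral ampulla, with a median of 3.24 CPM over all libraries. SLC12A1 was 65.3 CPM in the ipsilateral and 36.9 CPM in the contralateral ampulla of lactating cow C, against a median of 7.49 CPM.

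Members with a mean under 1 CPM were not silent in every animal. CA5A, a mitochondrial carbonic anhydrase known from liver, exceeded 1 CPM in 5 libraries, each from the isthmus. They were the ipsilateral (18.1 CPM) and contralateral (7.59 CPM) isthmus of heifer C and the ipsilateral isthmus of lactating cow D (11.3 CPM), heifer D (9.95 CPM) and lactating cow A (2.75 CPM). Of its 279 counts 270 were in the isthmus. The chloride-bicarbonate exchanger SLC26A3 had 107 of 108 counts in the isthmus and reached 8.12 CPM in the ipsilateral isthmus of non-lactating cow A. SLC26A4, pendrin, had 121 of 140 counts in the ampulla and reached 5.53 CPM in the contralateral ampulla of lactating cow A.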
